A study of Sus scrofa with 12 samples.

Results

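The comparison described here is that of paVICs, the interstitial cells of the pig aortic valve, given LPC together with dantrolene against paVICs given dantrolene without LPC. It held 6 of the 12 mRNA libraries of the study, chosen by their treatment labels, with 3 libraries per group. All libraries came from wild-type cells kept for 24 h in the same low-serum medium. The dantrolene group received 60 μM dantrolene in DMSO, and the LPC + dantrolene group received 60 μM dantrolene in DMSO and 10 μM LPC in ethanol. The other groups were vehicle control and 10 μM LPC. The solvents were matched in every group, at 0.6% DMSO and 0.1% ethanol. The study ran 3 experiments on different days, each with a separate primary isolation pooled from the valves of 6 hearts and 1 library per group. Libraries with the same replicate number, 1, 2, or 3, were taken to share an isolation, which is inferred from that number. The question was what LPC still added to gene expression when dantrolene was already present.

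LPC, or lysophosphatidylcholine, is a phospholipid with a single fatty acid chain that phospholipases release and that is carried by oxidized low-density lipoprotein. Dantrolene blocks ryanodine receptors, the channels through which the endoplasmic reticulum releases stored calcium. Cells sense fatty acids in part through the PPAR nuclear receptors, which switch on genes of fatty acid storage and oxidation, and they sense sterols through the SREBP factors, which switch on cholesterol synthesis when sterol is scarce. Oxysterols act on the LXR receptors, which switch on genes of cholesterol export.

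Values are given as CPM, the share of a library's counts scaled with TMM factors. Differences are log2 fold changes of LPC + dantrolene over dantrolene, fitted and tested with the quasi-likelihood method of edgeR. P values were adjusted by Benjamini-Hochberg over the 13216 genes tested of 31908. A gene was called at an adjusted P under 0.05. Total counts ranged from 16826942 to 24105935 in the dantrolene group and from 16489684 to 18653374 in the LPC + dantrolene group. The median SE of a log2 fold change was 0.345. All 12 markers of valve interstitial cells and fibroblasts, collagen genes and vimentin among them, were over 1 CPM in all 6 libraries. Of the other marker lists, 7 of 12 endothelial markers, 2 of 12 macrophage and leukocyte markers, 8 of 9 smooth muscle and pericyte markers, 1 of 7 melanocyte and glia markers, and 0 of 6 cardiac muscle markers in the count table reached that level.

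The library of LPC + dantrolene replicate 2 stood apart from the rest. Its log2 CPM correlated with replicates 1 and 3 of its group at r = 0.918 and 0.934 across genes, against 0.984 between replicates 1 and 3. In it 686 tested genes had 0 counts, against 38 to 208 in the other 11 libraries, and its 10 most abundant genes held 17.1% of the counts, against 11.4% to 15.6%. Some results are given with and without it. Others are printed with all libraries only, and their size or sign may also rest on it.

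Few genes of dantrolene-treated cells passed the test when LPC was added. Compared with dantrolene, LPC + dantrolene had 2 genes called higher, ANGPTL4 and PDK4 (0.0151% of tested genes), and 1 gene called lower, ENSSSCG00000048802 (0.00757%). At an unadjusted P under 0.05, 102 genes were higher (0.772%) and 67 were lower (0.507%). Together these were fewer than a P threshold of 0.05 lets pass with no effect at all. Among genes of at least 10 CPM, the SD of the log2 fold changes was 0.229, under their median SE of 0.332. The short list of called genes therefore does not show that LPC added little. With isolation 2 left out of all groups, a setting added after seeing the data, 726 were higher and 398 lower at that unadjusted P. Of the 8209 genes with a mean level of at least 10 CPM, 86.1% had a 95% interval for the log2 fold change that lay between −1 and 1.

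**Figure D1:**
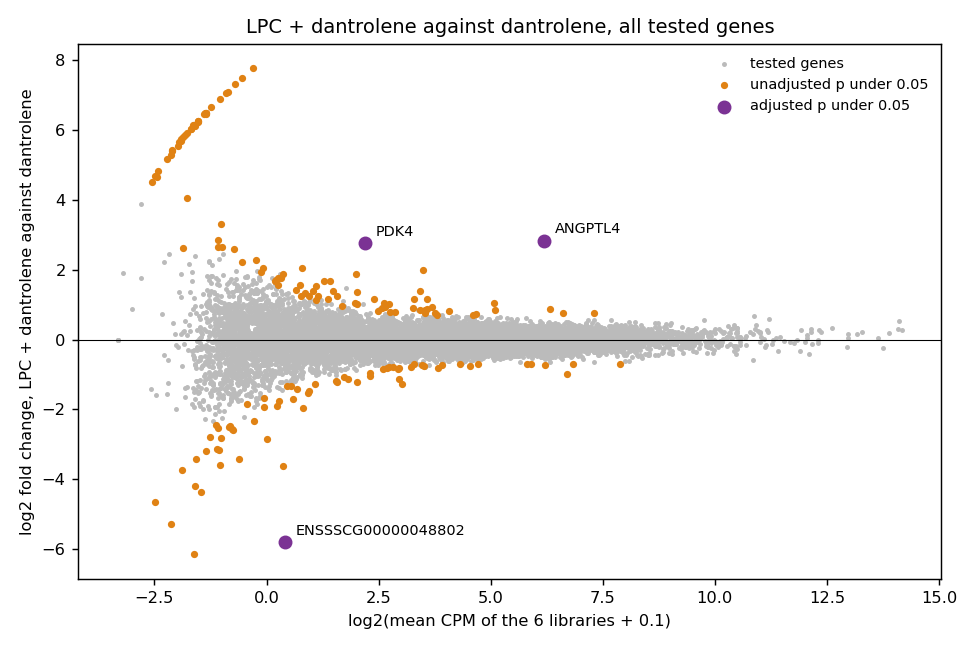
Log2 fold change of LPC + dantrolene against dantrolene (vertical) over the mean level of the 6 libraries (horizontal, log2 of CPM + 0.1), 1 point per tested gene. ANGPTL4 and PDK4 lie above all genes of similar level and ENSSSCG00000048802 below, and the arc at the upper left holds genes with 0 counts in all 3 dantrolene libraries, whose fitted fold change depends on the prior count.

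ANGPTL4 encodes a secreted protein that inhibits lipoprotein lipase and is a known target of the PPAR receptors. Its level was 10.9, 18.7, and 23.6 CPM in the 3 dantrolene libraries and 121, 145, and 115 CPM in the 3 LPC + dantrolene libraries. The groups did not overlap, and the gene was higher with LPC in each of the 3 isolations. In such bulk samples more RNA per cell cannot be told apart from more cells that express the gene. The log2 fold change was 2.84 ± 0.354 (SE, n = 3 per group; 95% interval 2.13 to 3.54; adjusted P = 7.59e-08). Without LPC + dantrolene replicate 2 the log2 fold change was 2.73. RefSeq places ANGPTL4 (ENSSSCG00000013599) on chromosome 2 of Sscrofa11.1, from position 70905767 to 70912892.

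The effect of LPC on ANGPTL4 was also present without dantrolene. Its level was 20.7, 51.2, and 33.6 CPM with vehicle and 122.9, 124, and 85.7 CPM with LPC, a log2 fold change of 1.66 (adjusted P = 1.97e-04). The difference between both LPC effects, the interaction, did not pass the test (adjusted P = 0.160, 95% interval of the log2 difference 0.246 to 2.11). The mean in the dantrolene group, 17.8 ± 6.395 CPM (SD, n = 3), lay below the mean of the vehicle control, 35.2 ± 15.3 CPM. Both groups that received LPC had similar means, at 111 ± 21.8 CPM with LPC and 127 ± 15.8 CPM with LPC + dantrolene.

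PDK4 encodes a kinase that switches off pyruvate dehydrogenase and so favors fatty acids over glucose as fuel. Its level was 0.328, 1.98, and 1.04 CPM with dantrolene and 10.4, 2.98, and 10.1 CPM with LPC + dantrolene, from 6, 52, and 19 counts and 198, 48, and 201 counts. The groups did not overlap, although within isolation 2 the levels of 1.98 and 2.98 CPM lay close together. The log2 fold change was 2.77 ± 0.459 (SE; 95% interval 1.86 to 3.68; adjusted P = 2.72e-04). Without LPC + dantrolene replicate 2 it was 3.14. The adjusted P was 0.0870 when libraries were scaled by total counts alone, 1.00 when only these groups entered the fit, 0.0740 without LPC replicate 2, and 0.0988 without dantrolene replicate 1. PDK4 (ENSSSCG00000015334) lies on chromosome 9, from position 75246956 to 75260134.

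Without dantrolene, LPC had a similar effect on PDK4. The vehicle control held 1.48, 1.58, and 0.930 CPM and the LPC group 15.3, 15.6, and 11.3 CPM, a log2 fold change of 3.40 (adjusted P = 7.32e-07). The interaction did not pass the test (adjusted P = 0.682), and its 95% interval ran from −1.87 to 0.621. Given the spread between libraries, an LPC effect on PDK4 that was smaller with dantrolene could not be told from an equal one.

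The gene called lower, ENSSSCG00000048802, has no symbol in the count table or the gene name table, and no function is given for it here. It had 46, 49, and 52 counts in the dantrolene libraries (2.52, 1.87, and 2.84 CPM) and 1, 1, and 0 counts in the LPC + dantrolene libraries. The log2 fold change was −5.80 ± 1.19 (SE, adjusted P = 0.0232). As a ratio of summed counts per scaled library size, dantrolene was 64.4 times LPC + dantrolene (95% exact interval 17.5 to 537, counting error only). Its counts were also low in the groups without dantrolene, at 6, 18, and 6 with vehicle and 0, 3, and 1 with LPC. Dantrolene alone was therefore the group in which this RNA was most abundant, and the levels of LPC + dantrolene were near those of LPC. When the isolation entered as a block, the adjusted P was 0.172, and leaving out any 1 of the 6 libraries compared left adjusted P values of 0.0992 to 0.481.

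**Figure D2:**
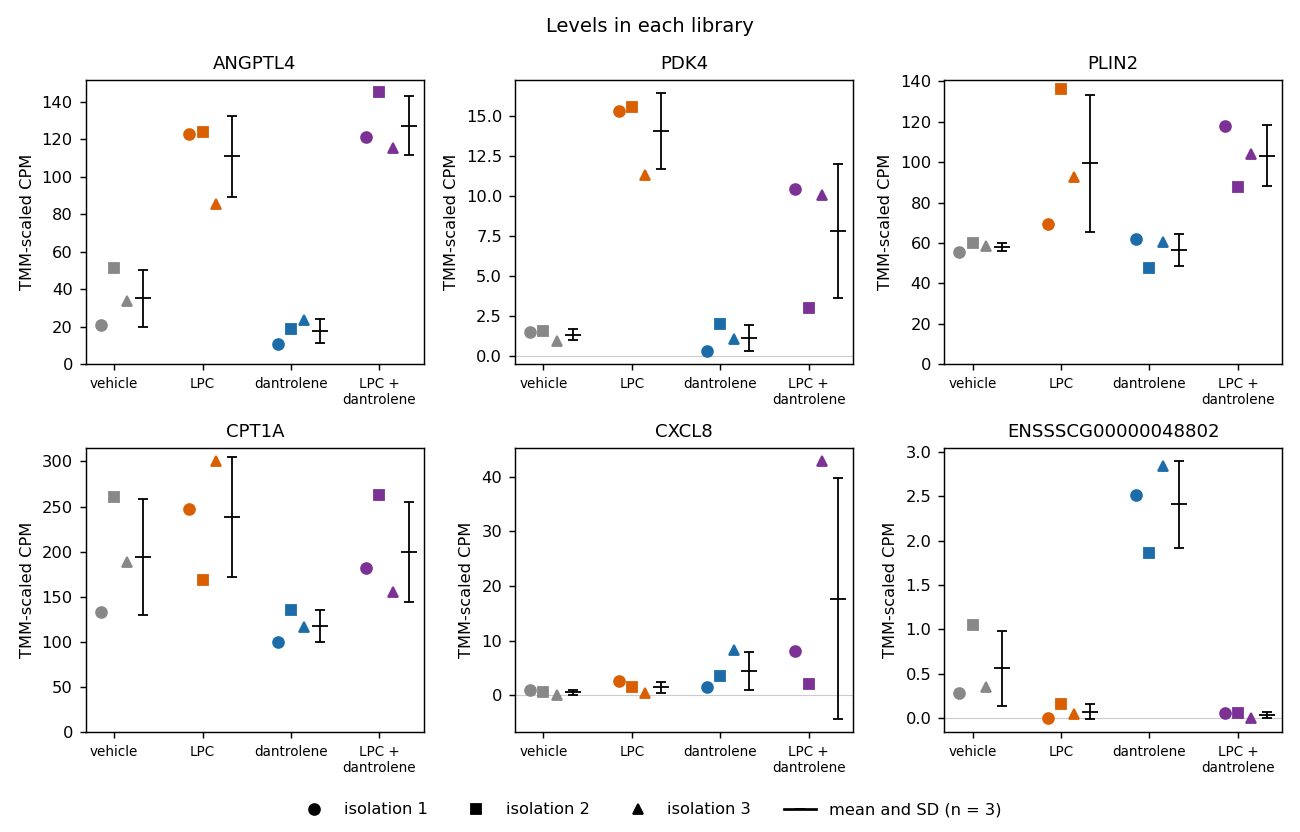
TMM-scaled CPM (vertical, linear) of 6 genes in each library, by treatment group (horizontal), with the symbol giving the isolation and the bar the mean and SD of 3 libraries. ANGPTL4, PDK4, and PLIN2 are high in both groups that received LPC, ENSSSCG00000048802 is highest in the dantrolene group, and the CXCL8 mean of LPC + dantrolene rests on isolation 3 at 43.0 CPM.

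Genes that PPAR receptors are known to control, together with genes of fatty acid uptake, storage, and oxidation, formed a list of 64 symbols. Of these 61 were in the count table and 50 passed the filter on low counts, and 2 were called, both higher (ANGPTL4 and PDK4), against 0.0151% of all tested genes. The list was chosen with earlier results of these data known, and the study names ANGPTL4 from these libraries, so that count is not independent evidence. At an unadjusted P under 0.05, 5 members were higher and 0 were lower, against 0.772% and 0.507% of all tested genes. In 7 members all 3 LPC + dantrolene libraries lay above all 3 dantrolene libraries, an order that 2.54% of all tested genes showed, and in 2 members all lay below, against 2.17%. The median log2 fold change of the list was 0.07, against 0.00352 over all tested genes, and 32 members lay above 0 and 18 below. This direction rested on 1 library. The median was −0.09 without LPC + dantrolene replicate 2, with 21 members above 0 and 30 below, and with isolation 2 left out of all groups it was −0.11, with 22 above and 28 below.

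PLIN2 encodes perilipin 2, the protein that coats cytoplasmic lipid droplets. It measured 62.1, 47.5, and 60.3 CPM with dantrolene and 118, 87.7, and 104 CPM with LPC + dantrolene. The groups did not overlap, with a log2 fold change of 0.87 ± 0.320 (SE, unadjusted P = 0.00823, adjusted P = 1.00, 95% interval 0.230 to 1.502). With LPC against vehicle its log2 fold change was 0.78 (adjusted P = 0.147). The LPC group and the LPC + dantrolene group had means of 99.5 ± 33.9 and 103 ± 15.1 CPM (SD, n = 3), and neither LPC effect passed the adjusted threshold.

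CPT1A encodes the carnitine palmitoyltransferase that admits long-chain fatty acids to the mitochondria for oxidation. It measured 100, 136, and 117 CPM with dantrolene and 182, 262, and 155 CPM with LPC + dantrolene, a log2 fold change of 0.76 ± 0.327 (SE, unadjusted P = 0.0219, adjusted P = 1.00). The groups did not overlap. In the groups without dantrolene they did, at 133, 261, and 189 CPM with vehicle and 247, 168, and 300 CPM with LPC. The other 3 members whose groups did not overlap and that were higher were SLC25A20, the mitochondrial acylcarnitine carrier, at a log2 fold change of 0.45, CPT1B, the muscle form of the transferase, at 0.44, and FABP3, a fatty acid binding protein at about 1 CPM, at 1.54. Their unadjusted P values were 0.177, 0.173, and 0.101, and these 3 genes were picked by their order after their values were seen.

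CREB3L3, a transcription factor of lipid metabolism in liver, had 0 counts in all 3 dantrolene libraries and 8, 0, and 0 counts in the LPC + dantrolene libraries. Its unadjusted P of 0.0210 thus rested on 1 library. With LPC alone it had 39, 21, and 44 counts, against 1, 0, and 0 with vehicle (log2 fold change 6.22, adjusted P = 0.00137). The difference between both LPC effects on CREB3L3 did not pass the test (log2 −1.70, adjusted P = 0.897), and its fitted value depends on the prior count. The members whose LPC + dantrolene libraries all lay below were ETFA and EHHADH, an electron carrier and a peroxisomal enzyme of fatty acid oxidation, at log2 fold changes of −0.44 and −0.68 (unadjusted P = 0.175 and 0.0529). The genes of the receptors themselves, PPARA and PPARD, had log2 fold changes of 0.00759 and 0.07, and PPARG was under the filter on low counts.

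Most genes of sterol and fatty acid synthesis lay below 0, and none passed the adjusted test. Of the 39 listed, 37 passed the filter, 0 were called, 29 had a log2 fold change below 0 (78.4%, against 49.6% of all tested genes), and 4 had an unadjusted P under 0.05, all lower (0.507% of all tested genes). The median of the list was −0.31. By another scaling it was −0.36 (total counts alone) or −0.29 (RLE), so the direction did not depend on the scaling.

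The sterol genes differed between isolations. Within isolation 1 the median difference of the 37 genes, LPC + dantrolene minus dantrolene, was −0.30 on the log2 scale with 28 genes lower, and within isolation 3 it was −0.53 with 34 lower. Within isolation 2 the median was 0.28 with 16 lower. Without LPC + dantrolene replicate 2, 39 list members passed the filter, all 39 had a log2 fold change below 0, 10 had an unadjusted P under 0.05, and the median was −0.41. Leaving out any of the other 5 libraries gave medians from −0.30 to −0.15. The summed level of the list was 2951, 2751, and 2914 CPM with dantrolene and 2141, 3147, and 1998 CPM with LPC + dantrolene. Without dantrolene it was 3428, 4151, and 4329 CPM with vehicle and 2777, 2677, and 3027 CPM with LPC.

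**Figure D3:**
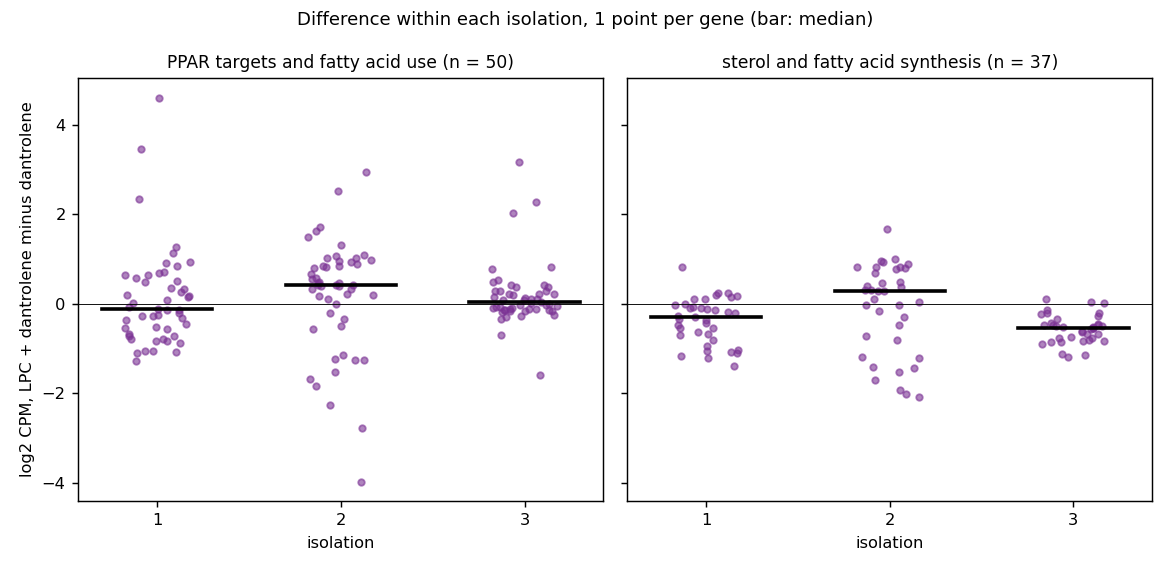
Difference in log2 CPM between LPC + dantrolene and dantrolene within each isolation (horizontal), 1 point per tested gene of the PPAR list (left) and of the sterol and fatty acid synthesis list (right), with bars at the medians. The sterol list has medians of −0.30, 0.28, and −0.53 in isolations 1, 2, and 3, and the PPAR list −0.12, 0.42, and 0.04.

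HMGCS1, which makes the precursor of mevalonate, had the smallest P of the list. It measured 128, 132, and 157 CPM with dantrolene and 100, 40.4, and 71.0 CPM with LPC + dantrolene, a log2 fold change of −0.98 ± 0.323 (SE, unadjusted P = 0.00330, adjusted P = 1.00). The groups did not overlap, and without LPC + dantrolene replicate 2 the log2 fold change was −0.70. With LPC against vehicle it was −0.03 (adjusted P = 0.973). The gene did not stand for its list there. The list median with LPC against vehicle was −0.49, against −0.18 over all tested genes, with 1 member called higher and 2 lower. CYP51A1 and SC5D, which act late in the pathway, had log2 fold changes of −0.70 and −0.74 (unadjusted P = 0.0296 and 0.0324). In all 3 genes the lowest value was that of LPC + dantrolene replicate 2.

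Other members of the list had their highest LPC + dantrolene value in that same library. INSIG1, a sterol sensor that holds back SREBP, measured 83.6, 74.8, and 87.4 CPM against 43.4, 90.7, and 40.4 CPM. SCD, the stearoyl-CoA desaturase, measured 154, 142, and 156 CPM against 73.7, 196, and 92.8 CPM. In both genes isolations 1 and 3 were lower with LPC and isolation 2 was higher, so the groups overlapped, and both were chosen after their values were seen. SREBF2, which encodes the factor that drives these genes, had a log2 fold change of 0.04.

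Of the list of LXR targets and cholesterol handling, 16 of 22 genes were tested, 0 were called, and 7 lay above 0 and 9 below, with a median of −0.02. Leaving out 1 of the 6 libraries gave medians from −0.15 (LPC + dantrolene replicate 2) to 0.13 (LPC + dantrolene replicate 1), so the list had no set direction. ABCA1, the cholesterol exporter that LXR controls, measured 12.7, 17.9, and 10.8 CPM with dantrolene and 16.2, 4.47, and 12.7 CPM with LPC + dantrolene (log2 fold change −0.31, unadjusted P = 0.400). The groups overlapped, and the lowest of the 6 values was that of LPC + dantrolene replicate 2. MYLIP, a ubiquitin ligase that LXR controls, measured 25.2, 17.9, and 17.7 CPM against 11.2, 15.7, and 12.8 CPM (log2 fold change −0.62, unadjusted P = 0.0792), with groups that did not overlap.

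Genes that make, break down, or sense LPC and its product lysophosphatidic acid did not pass the test either. Of the 43 listed, 33 were tested, 0 were called, 20 lay above 0 and 13 below, and the median was 0.05. The median was −0.07 without LPC + dantrolene replicate 2, with 12 above 0 and 21 below. LYPLAL1, a lysophospholipase-like protein, measured 5.64, 4.38, and 5.78 CPM with dantrolene and 6.21, 12.8, and 8.47 CPM with LPC + dantrolene (log2 fold change 0.80, unadjusted P = 0.0386). ENPP2, the secreted autotaxin that turns LPC into lysophosphatidic acid, had a log2 fold change of −0.43, and LPAR1, a receptor for that product, of −0.16 (unadjusted P = 0.402 and 0.651). GPCPD1, which breaks down a later product of LPC, was called with LPC against vehicle (log2 fold change 1.20, adjusted P = 0.0444), a call lost under 11 of 22 alternatives (adjusted P = 0.0959 with the isolation as a block). With dantrolene present it measured 16.5, 15.5, and 20.6 CPM without LPC and 22.4, 7.83, and 51.6 CPM with it (log2 fold change 0.64, unadjusted P = 0.106).

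**Figure D4:**
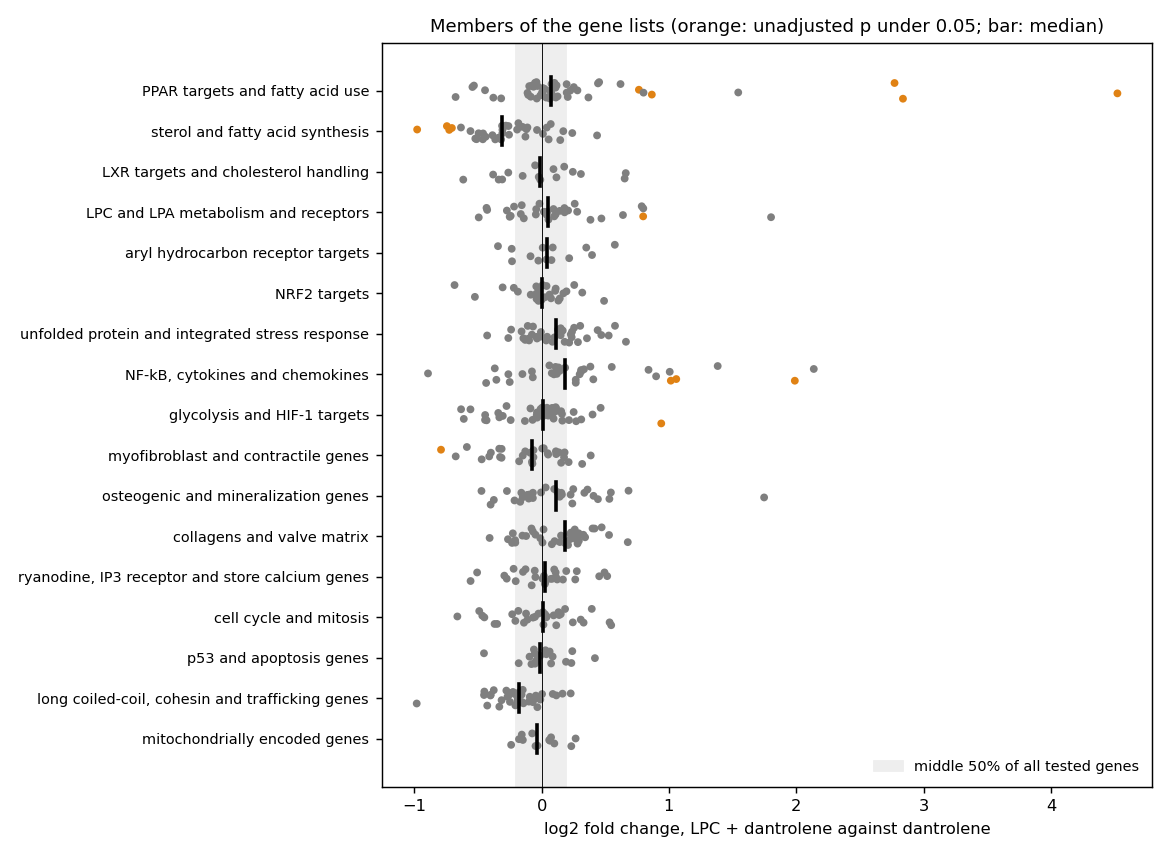
Log2 fold change of LPC + dantrolene against dantrolene (horizontal) for each tested member of 17 gene lists (vertical, points spread for legibility), with bars at the list medians, orange points at an unadjusted P under 0.05, and a grey band for the middle 50% of all tested genes. The sterol list lies mostly below 0 with a median of −0.31, the PPAR list has its highest points at CREB3L3, ANGPTL4, and PDK4, and the point of CREB3L3 stands on 8 counts of 1 library.

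Among cytokines, chemokines, and targets of NF-kB, the factor of inflammatory gene expression, 35 of 50 genes were tested and 0 were called. The log2 fold change was above 0 in 26 of the 35, with a median of 0.18, and 3 had an unadjusted P under 0.05, all higher (0.772% of all tested genes). The median was 0.24 without LPC + dantrolene replicate 2. CXCL8, which encodes the neutrophil attractant interleukin-8, measured 1.53, 3.50, and 8.40 CPM with dantrolene and 8.10, 2.11, and 43.0 CPM with LPC + dantrolene. It was higher with LPC in isolations 1 and 3 and lower in isolation 2, so the groups overlapped. The log2 fold change was 1.99 ± 0.526 (SE, unadjusted P = 2.91e-04, adjusted P = 0.427). It was 2.49 without LPC + dantrolene replicate 2 (adjusted P = 0.0121) and 0.19 without LPC + dantrolene replicate 3. The summed level of the 12 macrophage and leukocyte markers was 18.1 to 21.7 CPM with dantrolene and 20.2 to 29.3 CPM with LPC + dantrolene, and 3 of them (PTPRC, CD163, and CD3E) were at 0 counts in all 6 libraries. The vehicle control and LPC groups held between 0.116 and 2.56 CPM of CXCL8.

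CXCL2, a related neutrophil attractant, measured 5.69, 2.82, and 4.58 CPM with dantrolene and 9.10, 5.78, and 11.5 CPM with LPC + dantrolene, and did not overlap (log2 fold change 1.01, unadjusted P = 0.0164). LCN2, an iron-binding protein of inflammation, measured 33.7, 10.1, and 21.4 CPM against 15.3, 35.3, and 84.7 CPM and overlapped (log2 fold change 1.06, unadjusted P = 0.00981). The LPC effect on LCN2 differed with and without dantrolene (log2 fold change −1.08 without it, interaction adjusted P = 0.0127, or 0.0918 with the isolation as a block, and not called under 9 of 21 alternatives). IL11, a cytokine of fibrosis, had a log2 fold change of 0.84 (unadjusted P = 0.0505). Within isolations 1, 2, and 3 the median difference of the 35 genes was 0.42, −0.26, and 0.18, so isolation 2 differed in sign here too.

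The genes with the smallest P values, taken in order, were mostly of low level. Of the 10 named genes higher with the smallest P, 6 had 0 counts in all 3 dantrolene libraries, namely ARHGAP25, NCMAP, NOXA1, SNORA80B, NGFR, and CRP. Their summed counts with LPC + dantrolene were between 40 and 76, and 3 of the 6 also had 0 counts in the LPC + dantrolene library of isolation 1. For NCMAP, NOXA1, NGFR, and CRP, LPC + dantrolene replicate 2 held 36 of 45, 47 of 59, 33 of 44, and 28 of 40 counts. For ARHGAP25 and SNORA80B replicate 3 held the most, at 38 and 42 counts. ARHGAP25, a GTPase regulator of blood cells, had 1, 37, and 38 counts. Its summed level was 28.9-fold that of a floor of 3 counts over the dantrolene group, a ratio that leaves out the spread between libraries. Over all tested genes, 41 had 0 counts in all 3 dantrolene libraries, against 6 or 7 in each other group, and in 34 of the 41 this held for the dantrolene group alone. None of the 6 was called by the quasi-likelihood test with all libraries. NGFR was called under 4 of 20 alternatives, by DESeq2 (adjusted P = 8.18e-04), with no filter (0.00283), without LPC replicate 3 (0.00720), and without LPC + dantrolene replicate 3 (0.00181). It had 11, 33, and 0 counts with LPC + dantrolene, so the last of these leaves out the library with 0 counts. Its log2 fold change ran from 0.51 to 21.1 over the settings. CYP26B1, which degrades retinoic acid, was the remaining one of the 10 beside ANGPTL4, PDK4, and CXCL8. It measured 0.931, 0.914, and 1.47 CPM with dantrolene and 5.47, 2.48, and 2.66 CPM with LPC + dantrolene (log2 fold change 1.68, unadjusted P = 5.26e-04, adjusted P = 0.631).

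At the lower end, none of the 10 named genes with the smallest P was called. GSTA1, a glutathione transferase, had 18, 22, and 87 counts with dantrolene and 2, 7, and 0 counts with LPC + dantrolene (log2 fold change −3.61, unadjusted P = 0.00187). PDGFD, a growth factor for fibroblasts and smooth muscle, measured 14.8, 9.26, and 7.64 CPM with dantrolene and 6.10, 4.35, and 3.91 CPM with LPC + dantrolene (log2 fold change −1.14, unadjusted P = 0.00313). The groups did not overlap for either gene. For PDGFD the LPC effect without dantrolene was 0.65, and the interaction passed the test (adjusted P = 0.0283), but not with the isolation as a block (0.0692) and not under 8 of 21 alternatives in all. HRH1, the histamine H1 receptor, measured 7.88, 4.65, and 4.09 CPM against 2.16, 2.42, and 2.61 CPM (log2 fold change −1.21, unadjusted P = 0.00751). The other members of the 10 were HMGCS1, GABRP, PMEL, TMEM238, NAALAD2, CDH18, and PAX9, and PMEL, CDH18, and PAX9 had fewer than 50 counts summed over each group.

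Genes of the calcification model and of dantrolene's targets were not called. ACTA2, which encodes smooth muscle actin of myofibroblasts, measured 15788, 10264, and 11472 CPM with dantrolene and 8982, 23558, and 6248 CPM with LPC + dantrolene. The highest and the lowest value both lay in the LPC + dantrolene group, and the log2 fold change was 0.05 (95% interval −0.628 to 0.724), or −0.72 (unadjusted P = 0.0187) without replicate 2 of that group. The summed level of the 9 smooth muscle and pericyte markers, ACTA2 among them, was 12609 to 18167 CPM with dantrolene and 7463 to 26841 CPM with LPC + dantrolene. RUNX2 and SOX9, factors of bone and cartilage, had log2 fold changes of 0.24 and −0.15 (95% intervals −0.420 to 0.903 and −0.820 to 0.524). RYR3, a ryanodine receptor, measured 29.9, 24.3, and 22.3 CPM with dantrolene and 29.9, 10.6, and 28.6 CPM with LPC + dantrolene (log2 fold change −0.15). AGTR1, the angiotensin II receptor, measured 12.4, 11.5, and 11.4 CPM against 10.2, 4.04, and 6.12 CPM (log2 fold change −0.79, unadjusted P = 0.0277).

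CYP1A1 and CYP1B1, enzymes that the aryl hydrocarbon receptor induces, were at 13.5 to 53.04 CPM and 769 to 1944 CPM with dantrolene. With LPC + dantrolene they were at 22.6 to 48.8 CPM and 385 to 2493 CPM, and their log2 fold changes were 0.08 and 0.09 (unadjusted P = 0.847 and 0.835). The groups overlapped for both. Of the 26 genes that the study names in its sequencing results or measured by PCR, ANGPTL4 was the 1 called. Those genes were picked on these samples, so that count is not independent evidence.

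The other lists gave 0 called members each, and most of their medians had no set direction. They covered targets of the aryl hydrocarbon receptor (13 tested, median log2 fold change 0.04), NRF2 targets (30, 0.00379), the unfolded protein response (38, 0.11), glycolysis and HIF-1 targets (42, 0.01), and myofibroblast and contractile genes (31, −0.07). They also covered osteogenic genes (32, 0.11), collagens and valve matrix (38, 0.19), ryanodine and store calcium genes (28, 0.03), cell cycle genes (32, 0.01), p53 and apoptosis genes (19, −0.01), and mitochondrially encoded genes (13, −0.03). Across these 11 lists only 2 members had an unadjusted P under 0.05, CA12, a carbonic anhydrase under HIF-1, at a log2 fold change of 0.94, and AGTR1.

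Of all 17 lists, 14 had a median that changed sign when 1 of the 6 libraries was left out, and 3 did not, namely sterol and fatty acid synthesis, the unfolded protein response (0.02 to 0.18), and the NF-kB list. Without LPC + dantrolene replicate 2 the sign turned for collagens and valve matrix (−0.00959), osteogenic genes (−0.08), glycolysis and HIF-1 targets (−0.20), NRF2 targets (−0.09), p53 and apoptosis genes (0.13), and mitochondrially encoded genes (0.12). Without dantrolene replicate 2 the collagen median was −0.01 and that of the mitochondrially encoded genes 0.54. Without dantrolene replicate 1 the median was −0.16 for targets of the aryl hydrocarbon receptor, −0.12 for cell cycle genes, and −0.03 for ryanodine and store calcium genes. For myofibroblast and contractile genes it was 0.19 without LPC + dantrolene replicate 3.

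The effect of LPC with dantrolene present was then set beside the effect of LPC without it. These effects share no library. LPC against vehicle gave 1129 genes called higher (8.54%) and 19 called lower (0.144%). Of these 1129 genes, which had a median log2 fold change of 1.63 with LPC against vehicle, 2 were called with dantrolene present, 339 lay above 0, and 790 lay below 0, with a median of −0.09. Among genes of at least 10 CPM, the log2 fold changes had an SD of 0.229 with dantrolene present and 0.654 without it.

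Behind the median near 0 stood opposite differences in single isolations. Within isolation 1, 1092 of the 1129 genes were higher in LPC + dantrolene than in dantrolene, with a median difference of 0.78 on the log2 scale. Within isolation 3, 1027 were higher, with a median of 0.38. Within isolation 2, 1119 were lower, with a median of −1.83. The authors' adjustment for the isolation ties the libraries of an isolation to each other. A low LPC + dantrolene replicate 2 and a high dantrolene replicate 2 are therefore not independent, and leaving out 1 of them does not undo that. Without LPC + dantrolene replicate 2, and with dantrolene replicate 2 kept, the median log2 fold change of the 1129 genes was 0.27. The 1.63 of LPC against vehicle came from all libraries. The 1129 genes were chosen for a high value with LPC against vehicle, so a lower value in another comparison follows in part from that choice. The part of replicate 2 in the result was not tested beyond these values.

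**Figure D5:**
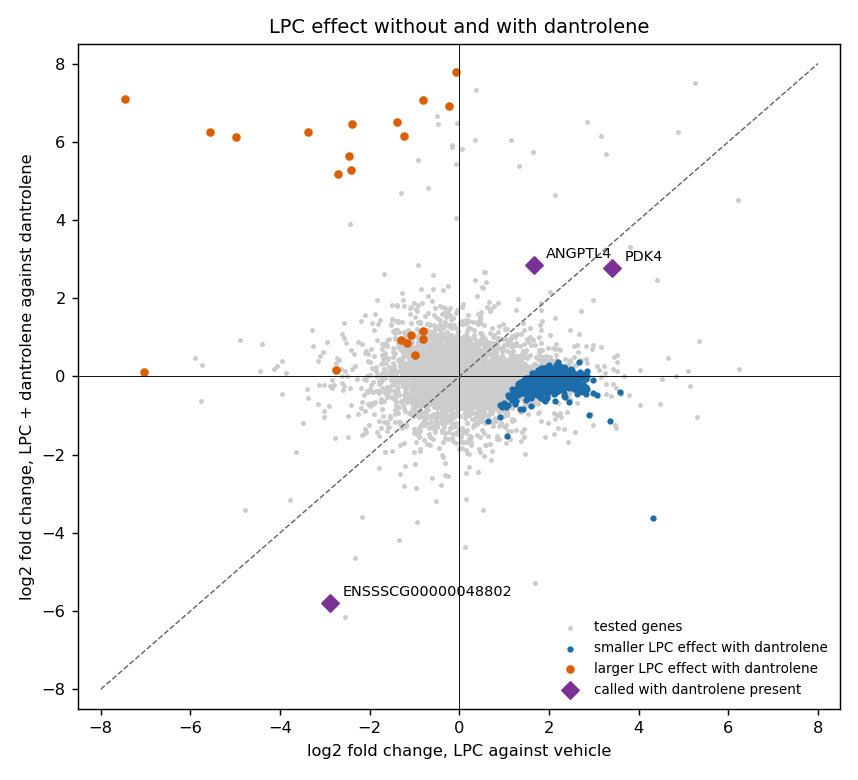
Log2 fold change of LPC against vehicle (horizontal) and of LPC + dantrolene against dantrolene (vertical), 1 point per tested gene, with the dashed line at equal effects. The blue genes with a smaller LPC effect with dantrolene lie near 0 on the vertical axis, PDK4 lies near the dashed line and ANGPTL4 above it, and most orange points at the upper left had 0 counts in all dantrolene libraries.

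The interaction, the effect of LPC with dantrolene less that without it, passed the adjusted test as negative in 593 genes (4.49%) and as positive in 21 (0.159%). Of the 593, 585 were among the genes called higher with LPC against vehicle, a comparison whose libraries the interaction shares, and the median log2 fold change of the 593 was 1.91 without and −0.14 with dantrolene. Of the 21, 13 had 0 counts in all 3 dantrolene libraries. When the isolation entered as a block, the counts were 277 and 3. The 593 became 4 without LPC replicate 2, 31 without dantrolene replicate 2, 511 without LPC + dantrolene replicate 2, and 33 with isolation 2 left out of all groups.

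Genes for long coiled-coil, cohesin, and trafficking proteins were among those that LPC raised without dantrolene. Of 37 tested, 34 were called higher with LPC against vehicle (8.54% of all tested genes), with a median log2 fold change of 2.34, and 31 had a smaller LPC effect with dantrolene (4.49%). These 31 became 24 with the isolation as a block, 1 without LPC replicate 2, 8 without dantrolene replicate 2, 30 without LPC + dantrolene replicate 2, and 7 with isolation 2 left out. With dantrolene present 0 were called, 32 lay below 0, and the median was −0.18. That direction turned with isolation 2. The median was 0.19 with 32 above 0 without LPC + dantrolene replicate 2, 0.40 with 34 above 0 without dantrolene replicate 2, and 0.74 with 36 above 0 when isolation 2 was left out of all groups, where 28 had an unadjusted P under 0.05. Several members were named by the study from these libraries, so the count is not independent evidence.

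In all 3 dantrolene libraries these RNAs lay above the vehicle control. The summed level of the list was 414 to 678 CPM with vehicle and 1745 to 1954 CPM with LPC. It was 925, 2509, and 1369 CPM with dantrolene and 1700, 647, and 2021 CPM with LPC + dantrolene. LPC + dantrolene replicate 2 thus lay at the level of the vehicle control, while dantrolene replicate 2 was the highest of all 12 libraries. Both values come after the authors' adjustment for the isolation, which can set such libraries against each other. Within isolations 1 and 3, 35 of the 37 genes were higher with LPC + dantrolene, and within isolation 2, 36 were lower.

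STAG2, a subunit of the cohesin ring, showed this in single values. It measured 25.1, 85.3, and 34.5 CPM with dantrolene and 44.9, 16.6, and 58.9 CPM with LPC + dantrolene (log2 fold change −0.27, unadjusted P = 0.457). Its log2 fold change with LPC against vehicle was 2.82 (adjusted P = 7.32e-07), and the interaction passed the test (adjusted P = 1.74e-04). ANGPTL4, in contrast to these genes, was high in LPC + dantrolene replicate 2, at 145 CPM against 18.7 CPM in dantrolene replicate 2.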

How the data were processed

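Poly-A RNA of 12 libraries (4 groups, n = 3) was sequenced by the study. The authors deposited whole-number counts per gene that they had adjusted for the isolation with the ComBat function, which the tests here take no account of and which can make adjusted P values too low. The study's methods name STAR as the aligner and the submitters' processing notes HISAT2 2.0.5, with build Sscrofa11.1. No statement was found that the counting used strand, so overlapping antisense genes cannot be told apart. Their tables of fold changes and P values were not used.

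Genes passing edgeR's filterByExpr (13216) were fitted with TMM factors and the group as the only term over all 12 libraries (edgeR 4.0.16, R 4.3.3, quasi-likelihood test, Benjamini-Hochberg adjustment). The script was checked on simulated counts. Depth was 16489684 to 24105935 counts per library, where 3 counts were 0.114 to 0.186 CPM. Intervals of counts cover counting error only. Symbols came from the count table (10923 tested genes) or a gene name table (572), and 1721 had none. Coordinates are RefSeq's, matched by symbol for 124 of 129 named genes. The named genes were the called genes, the 10 with a symbol and the smallest P in each direction, up to 4 members per list, those the study names, and a few defining genes, and not all are printed, a few of them because they are not reported here. Members, lists, and rules were chosen with earlier results of these data known.

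Libraries with the same replicate number were taken to share a primary isolation, from the study's methods and the numbers in the labels. The isolation was therefore used as a block in an alternative, and all values within isolations rest on this reading. Deviations from group means correlated at −0.317, −0.362, and −0.0685 between same-numbered libraries, which the authors' adjustment fixes, so this check says nothing about the pairing. Differences within isolations, and fits that leave out 1 library, carry that adjustment too. Alternatives were DESeq2 1.42.0, RLE factors, only the groups compared, scaling by total counts alone, testing without a filter or with a minimum of 10 counts per library, an adjusted P under 0.1, limma-voom 3.58.1 with library weights, and each library left out. Leaving isolation 2 out of all groups, and all values within isolations, were added after seeing the data.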

Additional observations from a re-analysis of the deposited data

Results flagged for a closer look

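By the interaction term, the LPC effect was called different with and without dantrolene in 593 genes with a smaller and 21 genes with a larger effect. Among the genes named here, the log2 interaction was −3.88 for KIF20B, −3.42 for CCDC186, −3.09 for STAG2, −2.96 for EEA1, −2.90 for NIPBL, −2.79 for VPS13C, −2.76 for KTN1, −2.72 for TOP2A, −2.60 for SMC3, −2.51 for PCM1, and −2.41 for BAZ2B, which are genes of chromosome structure and of organelle or vesicle movement. It was −2.27 for PNPLA8, a phospholipase, −1.70 for AHR, the aryl hydrocarbon receptor, −1.64 for SC5D, −2.19 for OMD, −1.79 for CALD1, −1.69 for SYNPO2, −1.78 for PDGFD, and −2.58 for TMEM238. LCN2 and CA12 had positive values of 2.14 and 2.23. For GSTA1 (−7.94), ARHGAP25 (7.86), NCMAP (14.6), NGFR (7.87), and CRP (7.14) the fitted value depends on the prior count, because libraries of at least 1 group were at or near 0 counts. Of these 26 interactions, 12 were not called when the isolation entered as a block, those of ARHGAP25, NGFR, CRP, GSTA1, PDGFD, TMEM238, SC5D, AHR, LCN2, CA12, KIF20B, and TOP2A (adjusted P = 0.0692 to 0.230, edgeR's quasi-likelihood test), and 14 were. Over all alternatives the call was lost in 15 of 20 for CRP, 13 of 19 for ARHGAP25, and 11 of 20 each for NGFR, GSTA1, and TOP2A. It was lost in 10 of 21 for TMEM238, 9 of 20 for KIF20B, 9 of 21 each for LCN2 and CA12, and 7 of 21 for BAZ2B. For STAG2, EEA1, and NIPBL it was lost in 1 of 21 each, and for CCDC186 in 0 of 21.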

How the results depend on the processing

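ANGPTL4 was called under all 22 alternatives, with log2 fold changes of 2.36 to 3.09. Genes higher with LPC + dantrolene numbered 3 with DESeq2 (ANGPTL4, PDK4, and NGFR), 1 with total counts alone, at least 10 counts in every library, or only the groups compared, 5 with no filter, 1224 with limma-voom and library weights, 9 without isolation 2, and 1 to 5 with 1 library left out. Genes lower numbered 0 with total counts alone, at least 10 counts, only the groups compared, or the isolation block (38, 37, 23, and 43 at an unadjusted P under 0.05, against 1 called by DESeq2), 889 with limma-voom, 10 without isolation 2, and 0 to 1 with 1 library left out. Larger LPC effects with dantrolene (21) numbered 6 with DESeq2, 2 with total counts alone, 52 with no filter, 3 with the block, 48 at an adjusted P under 0.1, 869 with limma-voom, 9 without isolation 2, and 0 to 48 with 1 library left out. Smaller effects (593) numbered 232 with total counts alone, 277 with the block, 1795 with limma-voom, 33 without isolation 2, and 4 to 889 with 1 library left out. LPC against vehicle (1148 called) gave 3598 with limma-voom, 1861 without isolation 2, and 687 to 1692 with 1 library left out. With the isolation as a block, genes higher with LPC + dantrolene stayed at 2 and LPC against vehicle gave 880. The block changed the other counts and the calls of ENSSSCG00000048802, of GPCPD1 with LPC against vehicle, and of the interactions of 12 of 26 named genes. Limma-voom gave LPC + dantrolene replicate 2 a weight of 0.0995 and dantrolene replicate 3 a weight of 12.6, and under it log2 values changed sign for CCDC186 (0.58), ND6 (0.63), SMTN (−0.57), KTN1 (0.72), PCM1 (0.46), ACTA2 (−0.80), STAG2 (0.67), NIPBL (0.64), TXNIP (−1.34), VPS13C (0.52), and EEA1 (0.52). The causes were not tested. Of 2731 uncalled values of named genes under the alternatives, 134 changed sign. The median log2 fold change of all genes was 0.00352 with TMM, −0.0227 with total counts, and 0.00858 with RLE.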

Other observations

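With isolation 2 left out of all groups, 9 genes were called higher and 10 lower in LPC + dantrolene against dantrolene, a setting added after seeing the data. Beside ANGPTL4, PDK4, and CXCL8, those higher included AMCF-II, a pig neutrophil chemokine (log2 fold change 1.73, adjusted P = 0.0447), and TOP2A and SHCBP1, genes of dividing cells (2.37 and 2.92, adjusted P = 0.00876 for both). Those lower included MMP28, a matrix metalloproteinase (−2.24, adjusted P = 9.96e-04), PI16, a marker of fibroblasts (−2.76, adjusted P = 0.00365), and CMKLR1, the chemerin receptor (−1.57, adjusted P = 0.0120). Over all libraries AMCF-II measured 2.08, 5.64, and 9.99 CPM with dantrolene and 14.5, 6.27, and 25.6 CPM with LPC + dantrolene (log2 fold change 1.39, unadjusted P = 0.00277), higher with LPC in all 3 isolations. These tests had 2 libraries per group, and none of these genes but ANGPTL4 and PDK4 was called higher with all libraries.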
